A study of Mus musculus with 2 samples.

Results

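The cells described here were classical monocytes of the mouse liver that carried few transcripts of the interferon-induced Ifit genes. They were 635 of the 7603 barcodes kept after quality filters, out of 7969 deposited barcodes, with 390 in the library of mice whose liver fibrosis had resolved (RES) and 245 in the library of uninjured mice (Ctrl). A barcode was kept with at least 200 detected genes and at most 10% mitochondrial unique molecular identifiers (UMIs, each standing for 1 captured transcript). Members were then chosen on raw UMI sums: at least 3 for Lyz2, at least 4 for Ly6c2, Chil3, F13a1 and Vcan together, at most 1 for the nonclassical monocyte genes Ace, Treml4, Cd300e and Ear2 together, and at most 2 each for the C1q genes and for Arg1 with Spp1. They also had at most 4 UMIs of Ifit1, Ifit2, Ifit3 and Rsad2 together, at most 1 of the dendritic cell gene Cd209a, and 0 of the NK cell genes Ncr1 and Klrb1c and of the B cell gene Cd79a. The 22 genes of this choice are described below but are no finding.

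Classical monocytes are made in the bone marrow and leave it through the chemokine receptor CCR2. In the circulation some convert to nonclassical monocytes that patrol the vessel wall, and in an injured liver they enter the tissue and can become macrophages that drive scarring or help clear it. Before that they already vary: some resemble neutrophils and keep granule protease transcripts, others carry major histocompatibility complex (MHC) class II and lean towards dendritic cells, and interferons add further programmes.

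Both groups were C57BL/6 mice, and the labels name no other allele or agent. The RES library came from animals labelled as having resolved liver fibrosis, and the Ctrl library from uninjured controls. For each, liver mononuclear cells from a Histopaque gradient were pooled from 5 animals, sorted for CD45 and CD11b and counted by 10x 3′ droplet sequencing. With 1 library per group, group and library cannot be told apart and no difference has a replicate check. Every interval below is a 95% interval for counting error only.

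The members held 4162752 UMIs in RES and 1916799 in Ctrl, with a median of 10560.5 UMIs and 2984 genes per RES cell and 7766 UMIs and 2471 genes per Ctrl cell. The libraries shared 56 barcodes, of which 53 were deep in RES (over 20000 UMIs) and shallow in Ctrl (under 1000 UMIs), with a median of 2.11% as many UMIs. None of the 390 RES members and 1 of the 245 Ctrl members was a shared barcode, and without them the counts of differing genes given below were 302 and 239 in place of 301 and 238. The 6 markers of classical monocytes summed to 6452 CPM (UMIs of a gene scaled to 1000000 UMIs in all) in RES members and 4595 CPM in Ctrl members, against 1770 and 1170 CPM in the other kept barcodes of the same libraries. This excess followed in part from the choice, which used Ly6c2, Chil3, F13a1 and Vcan. Hp and Ccr2, the only ones of the 6 that the choice did not use, summed to 3065 CPM in RES members and 2133 CPM in Ctrl members. Their sum in the other kept barcodes is not given here. Of 7 Kupffer cell markers 6 were at 0 in both libraries, and the whole list summed to 2.88 CPM in RES and 1.04 CPM in Ctrl. The neutrophil markers summed to 252 CPM in RES and 214 CPM in Ctrl, but 6 of 10 were at 0 in both, Ly6g and Retnlg among them, and Csf3r and Mmp8 made up most of the sum, with 87.7 and 163 CPM in RES and 105 and 107 CPM in Ctrl. Csf3r was seen in 55.6% of RES members and 53.9% of Ctrl members, and Mmp8 in 57.7% and 42.0%.

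Classical monocytes outside the interferon state took a larger share of the kept barcodes in RES under the limits as given, while their shares of the Lyz2-positive barcodes differed by less than counting error. The first difference was -0.555 percentage points when no C1q, Arg1 or Spp1 UMI was allowed, and 0.0367 points without members that held 2 or more neutrophil marker UMIs. They were 9.38% of kept barcodes in RES (8.51 to 10.3, exact Clopper-Pearson interval) and 7.11% in Ctrl (6.27 to 8.02), a difference of 2.27 percentage points (1.03 to 3.5, Newcombe interval). Among barcodes with at least 3 Lyz2 UMIs they were 17.0% in RES and 17.3% in Ctrl, a difference of -0.37 points whose interval ran across 0 (-2.91 to 2.10). Of all barcodes that met every other limit, 97% (390 of 402) in RES and 91.8% (245 of 267) in Ctrl also met the interferon limit, a difference of 5.25 points (1.77 to 9.38). Most members were far from that limit: 346 RES and 191 Ctrl cells had no UMI of the Ifit genes or Rsad2, and 2 RES and 3 Ctrl cells sat at the limit of 4, with 1 and 2 cells just outside it at 5. At the limit on the monocyte markers, 7 RES and 10 Ctrl members had 4 UMIs, and 4 RES and 15 Ctrl barcodes missed it with 3. The members' median there was 31.5 UMIs in RES and 16 in Ctrl. The limits count raw UMIs, RES was sequenced deeper, and the part of depth in these shares was not tested beyond the alternatives given in the closing section. There, the difference of 5.25 points was smaller when the choice was applied after thinning and larger with an Ifit limit of 1.

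Levels were compared as CPM of UMIs summed over the members of a library. Of the 5734 genes that reached 20 CPM in RES, Ctrl or both, 301 (5.25%) were at least 1.5-fold higher in RES and 238 (4.15%) at least 1.5-fold lower, 9.4% in all, and the median log2 ratio of RES over Ctrl was 0.02. The counts per gene list below stand against these shares, and 1 or 2 genes of a list are no result about that list. Where a gene reached 20 CPM in only 1 library, the direction of its difference followed from that limit. Besides the genes marked below, this held for Slc2a1 and Cd300lf, which reached it in RES alone. It also held for Egr1, Ly6a, Itgax and Slamf7, which reached it in Ctrl alone. The 15 genes ranked highest in RES included a granule protease, chemokine and metallothionein gene, and the 15 ranked lowest included interferon-induced and antigen-presenting genes.

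**Figure D1:**
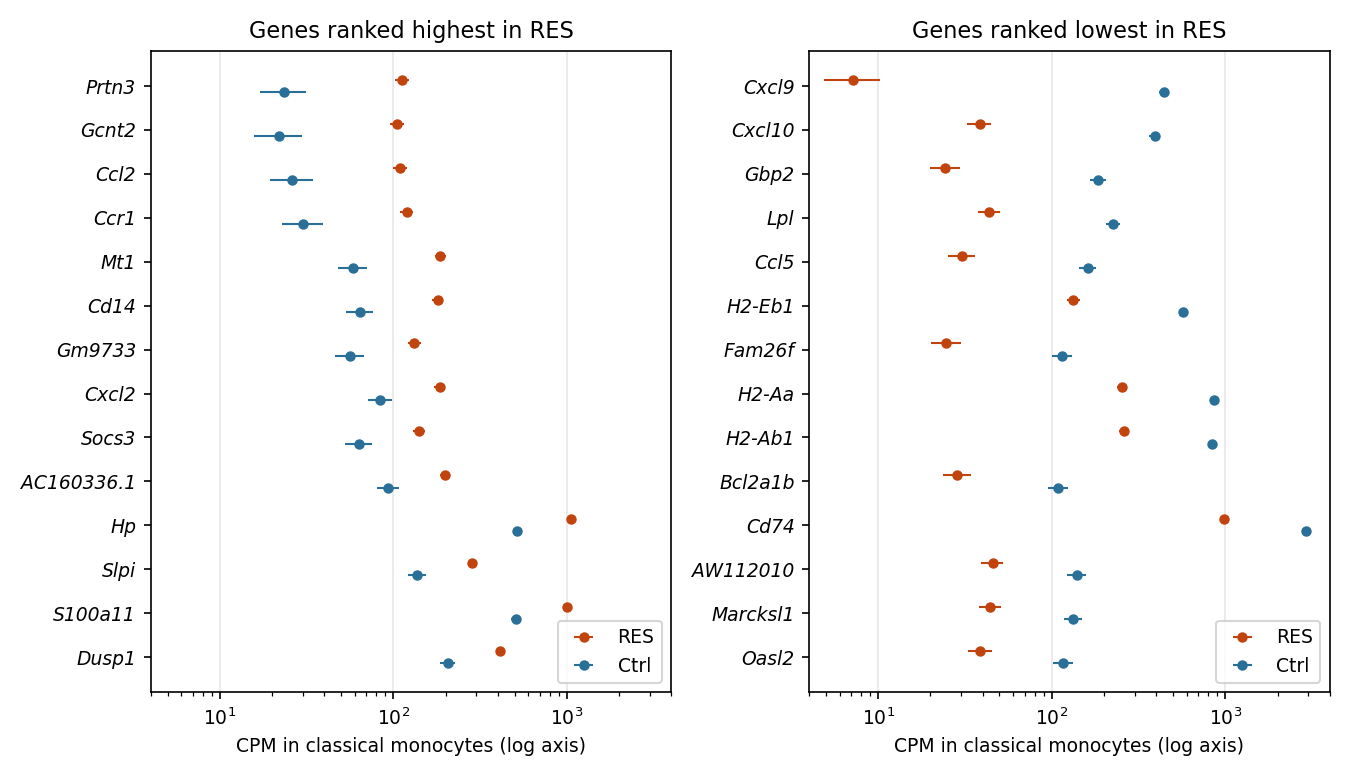
Levels in CPM (log axis) of 14 of the 15 genes ranked highest and 14 of the 15 ranked lowest in RES members, with RES in red-orange and Ctrl in blue. Bars are exact Poisson intervals for counting error, and the points of the 2 libraries lie apart for every gene shown, from Prtn3 at 112 and 23.5 CPM to Oasl2 at 38.7 and 117 CPM.

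Of the gene lists compared, that of genes shared with neutrophils and their precursors had the highest median ratio, which came largely from its less abundant members. Prtn3, which encodes proteinase 3 of neutrophil granules, was at 112 CPM in RES and 23.5 CPM in Ctrl, a log2 ratio of 2.26 (1.82 to 2.73). It was seen in 51.0% of RES cells and 15.1% of Ctrl cells. After each cell was thinned to 2000 UMIs (386 RES and 244 Ctrl cells were deep enough), the shares were 13.7% in RES and 5.33% in Ctrl, and 0.0679% and 0.0659% in the NK cell barcodes of the same libraries, which should lack it. All 5 measured members of a list of 16 neutrophil-like monocyte genes were higher in RES, with a median log2 ratio of 2.26. Of these 5, S100a8 and Lcn2 reached the 20 CPM limit in RES alone, so their direction followed from that limit. Over the 3 of them that reached 100 CPM the median was 0.73, and without members that held 2 or more neutrophil marker UMIs, a sum that includes Mmp8, the list median was 0.52, within 1.5-fold. The calprotectin gene S100a8 had 248 UMIs in RES and 4 in Ctrl (59.6 and 2.09 CPM, log2 4.84), but it came from few cells, since the highest 5% of RES cells held 90.3% of it. Lcn2, which encodes the iron-trapping lipocalin 2, had 163 UMIs in RES and 2 in Ctrl, with a log2 ratio of 5.23 (3.35 to 8.29). Over the alternatives tried Lcn2 ran from 2.79 to 5.35 and S100a8 from 1.88 to 5.85. After thinning, 1 RES cell had 48 UMIs of this list and every other RES cell at most 8. The part of that cell in the ratios was not tested. Anxa1, an anti-inflammatory annexin, and the collagenase gene Mmp8 were more abundant, at 418 and 163 CPM in RES against 252 and 107 CPM in Ctrl, although the log2 ratios were 0.52 for Anxa1 and -0.24 for Mmp8 without the members holding neutrophil markers. Mpo was at 0 in both libraries and Elane had 3 UMIs in RES and 0 in Ctrl, so these other granule enzymes of neutrophil precursors gave no measurable level.

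Among genes of the classical monocyte itself, Hp, the haemoglobin-binding haptoglobin, was at 1051 CPM in RES and 518 CPM in Ctrl (log2 1.02), and Gda, a guanine deaminase, at 707 and 392 CPM (log2 0.85). They were 2 of the 3 higher genes among 11 identity genes outside the choice, of which 0 were lower. Ccr2 itself was at 2015 CPM in RES and 1615 CPM in Ctrl (log2 0.32), and Plac8 at 3247 and 4074 CPM (log2 -0.33), both within 1.5-fold. Of the genes that chose the cells, Ly6c2 was at 1001.5 CPM in RES and 1064 CPM in Ctrl, F13a1 at 984 and 792 CPM, Chil3 at 1039 and 461 CPM, and Vcan at 362 and 145 CPM. Chil3 and Vcan thus stood higher in RES and Ly6c2 did not, which is given as a description. Slpi, a protease inhibitor of myeloid cells, was at 285 CPM in RES and 137 CPM in Ctrl (log2 1.05), and S100a11, a calcium-binding protein, at 1002 and 506 CPM (log2 0.99). S100a11 was the 1 of 6 measured S100 genes outside the neutrophil list past 1.5-fold.

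Of 7 measured chemokine genes outside the interferon gamma list 2 were higher, Ccl2 and Cxcl2, and 2 lower, Ccl5 and Cxcl16, though Cxcl16 was at log2 -0.42 without the class II-rich cells described below. Ccl2, the ligand of CCR2, was at 109 CPM in RES and 26.1 CPM in Ctrl (log2 2.06), and it came from 25.6% of RES cells and 10.6% of Ctrl cells. Cxcl2, which draws neutrophils, was at 185 and 84.0 CPM (log2 1.14), from 29.7% and 11.4% of cells. The UMIs of Ccl2 were concentrated: the highest 5% of cells held 69.8% of them in RES and 74.0% in Ctrl. Among 14 measured homing and adhesion genes 4 were higher and 1 lower. Ccr1, a receptor for Ccl3 and Ccl5, was at 120 CPM in RES and 30.3 CPM in Ctrl (log2 1.98) and was seen in 51.8% of RES cells, against 13.1% of Ctrl cells. Its thinned share was 20.2% in RES and 6.56% in Ctrl, with 0.611% and 0.132% in NK barcodes. Cd300lf, an inhibitory receptor, had a log2 ratio of 1.27, and the adhesion ligand gene Icam1 one of -0.74, which was -0.48 when the choice was applied after thinning.

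Receptors for bacterial products and complement differed in both directions. Cd14, the co-receptor for lipopolysaccharide, was at 180 CPM in RES and 64.2 CPM in Ctrl (log2 1.49), and was seen in 63.3% and 29.4% of cells. It was 1 of 3 higher genes among 17 measured microbial sensing receptors, of which 4 were lower, Cd180 among them with a log2 ratio of -0.94. C5ar1, the receptor for the anaphylatoxin C5a, had 178 UMIs in RES and 8 in Ctrl (42.8 and 4.17 CPM, log2 3.36). It reached 20 CPM in RES alone, so its direction followed from that limit. It was 1 of the 3 higher of 11 measured Fc and complement genes, of which 0 were lower, and Cfp, which encodes the complement activator properdin, was another (log2 0.82). The Fc receptor genes Fcgr3 and Fcgr1 were within 1.5-fold, with log2 ratios of 0.12 and 0.25.

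Glucocorticoid-induced genes were higher in 6 of 12 measured members and lower in 0, with a median log2 ratio of 0.59 against 0.02 over all genes. Of the 6, Fkbp5 and Tgm2 reached 20 CPM in RES alone, so their direction followed from that limit. Fkbp5, a chaperone of the glucocorticoid receptor, was at 48.0 CPM in RES and 8.35 CPM in Ctrl (log2 2.53), and it was seen in 31.5% and 5.31% of cells. Mt1, a metal-binding metallothionein, was at 187 and 58.4 CPM (log2 1.68), and Dusp1, a phosphatase that switches off MAP kinases, at 413 and 207 CPM (log2 1.0). Tgm2, a transglutaminase, was at 44.7 and 10.96 CPM, but the highest 5% of RES cells held 90.3% of it. Txnip, also induced by glucocorticoids, went the other way within 1.5-fold (log2 -0.48). NK barcodes also differed in Fkbp5, at 63.2 CPM in RES and 32.6 CPM in Ctrl, as did nonclassical monocytes in Dusp1, at 648 and 322 CPM. The differences between these cells and the members were not tested.

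Early response genes, which sorting and digestion can induce, were partly higher: 5 of 17, with 1 lower. Socs3, a feedback inhibitor of cytokine signals, was at 141 CPM in RES and 63.1 CPM in Ctrl (log2 1.15), and Ier3 had a log2 ratio of 1.07, while Egr1 was at 19.7 CPM in RES and 69.9 CPM in Ctrl (log2 -1.83). The ratio of Egr1, the 1 lower gene, was -0.01 without the members holding neutrophil markers. Across member cells the summed early response and glucocorticoid-induced UMIs correlated (Spearman's rho 0.45 over 386 thinned RES cells and 0.31 over 244 thinned Ctrl cells), though the lists share Dusp1 and Zfp36. Of 9 heat shock genes 0 passed 1.5-fold in either direction, with a median log2 ratio of -0.07. The part of cell preparation in the early response values was not tested.

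Enzymes that burn sugar were partly higher in RES. Of 19 measured glycolysis and hypoxia genes 4 were 1.5-fold higher and 0 lower, with a median log2 ratio of 0.36. Eno1, an enolase, was at 193 CPM in RES and 102 CPM in Ctrl (log2 0.92), Ldha, lactate dehydrogenase A, at 233 and 153 CPM (log2 0.60), and the glucose transporter gene Slc2a1 at 20.9 and 9.91 CPM (log2 1.08). Hk2 and Gpi1, at the top of the pathway, were within 1.5-fold at log2 ratios of 0.10 and 0.12. Among 20 antioxidant and oxidase genes 4 were higher and 0 lower, such as Gsr, glutathione reductase, at 667 and 428 CPM (log2 0.64), while the oxidase subunit gene Cybb was at 1735 and 2170 CPM (log2 -0.32).

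**Figure D2:**
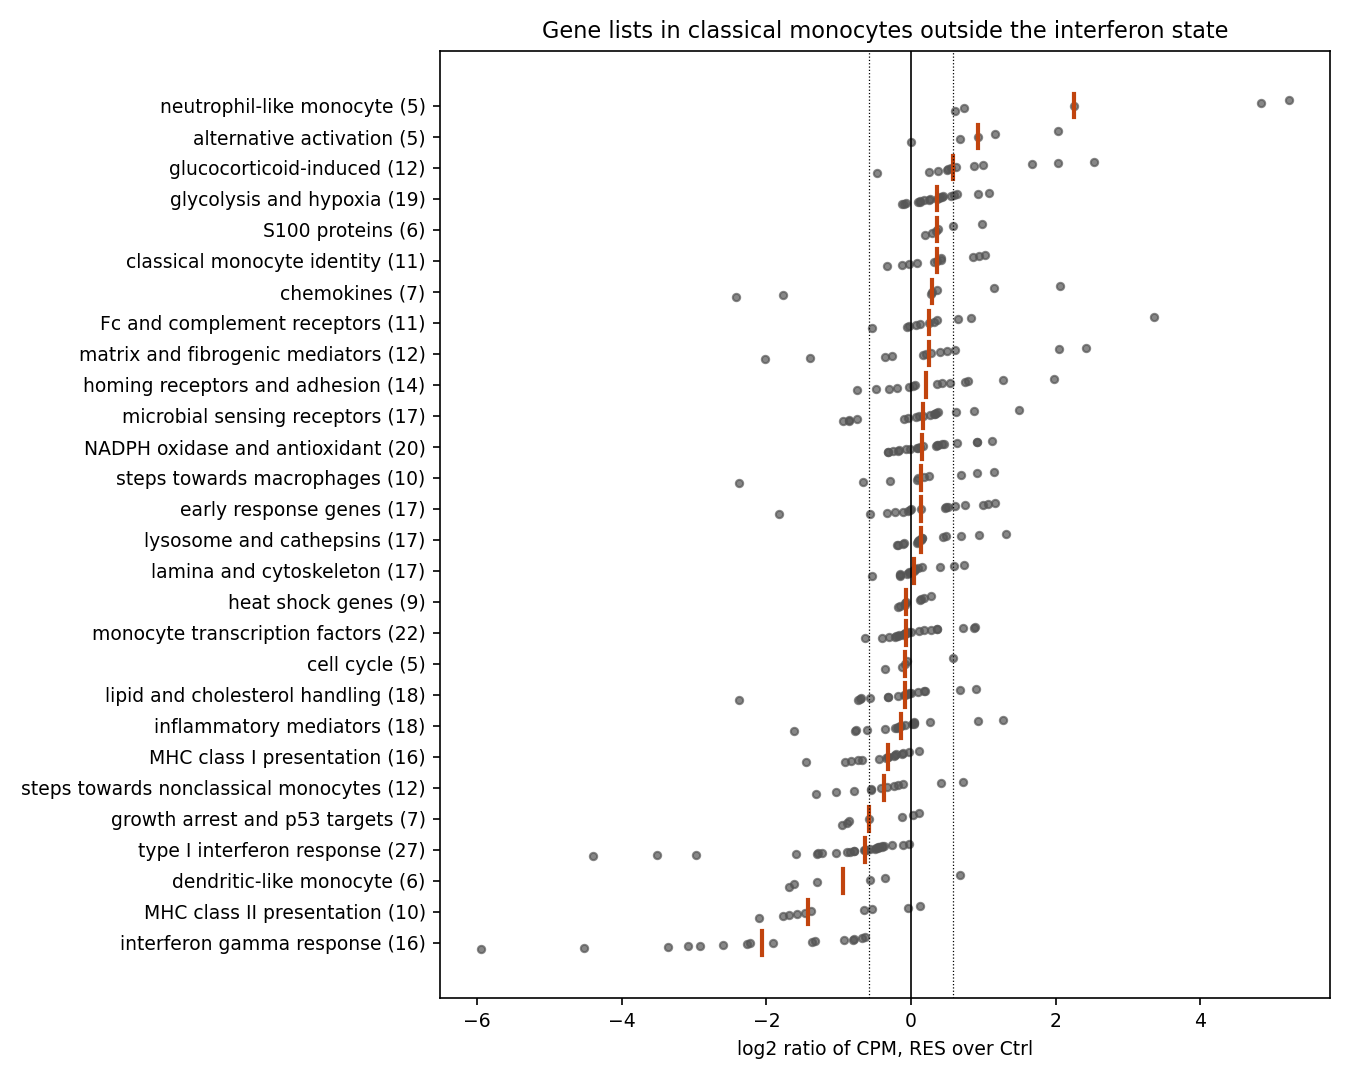
Log2 ratios of CPM, RES over Ctrl, of every gene that reached 20 CPM in RES, Ctrl or both in each of 28 gene lists (grey points, with the number of measured genes in brackets), with the list median as a red-orange bar and dotted lines at 1.5-fold. The medians run from 2.26 for neutrophil-like monocyte genes to -2.06 for the interferon gamma response, and most lists sit near 0.

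Genes that interferon gamma induces were the lowest group in RES. Every one of the 16 measured members of that list of 24 was below the 1.5-fold limit, and their median log2 ratio was -2.06. A gene was measured if RES, Ctrl or both reached 20 CPM. Some, such as Cxcl9 and Gbp5, reached it in Ctrl alone, so their direction followed from that limit, though not the size of the difference. Cxcl10 and Gbp2 reached it in both. Over the 6 that reached 100 CPM in RES, Ctrl or both the median was -2.57. Cxcl9, a chemokine for activated lymphocytes, was at 7.21 CPM in RES and 446 CPM in Ctrl (log2 -5.95, -6.53 to -5.43), from 30 and 854 UMIs. Its neighbour Cxcl10 was at 38.4 CPM in RES and 393 CPM in Ctrl (log2 -3.35). Cxcl9 lies at chr5:92321347-92328079 and Cxcl10 at chr5:92346638-92348889, both on the minus strand of GRCm38. The guanylate-binding protein genes Gbp2 and Gbp5, whose products attack microbes inside cells, were at 24.3 and 13.5 CPM in RES against 184 and 81.9 CPM in Ctrl (log2 -2.92 and -2.61). Irf1, the transcription factor that relays the signal, was at 68.0 CPM in RES and 170 CPM in Ctrl (log2 -1.32), and Irf8, needed to make monocytes and dendritic cells, at 213 and 332 CPM (log2 -0.64, and between -0.80 and -0.52 over the alternatives tried). Fam26f, an immune cell membrane protein, was at 24.7 and 115 CPM (log2 -2.22).

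The chemokines of this group came from few cells. Cxcl9 was seen in 0.769% of RES cells and 12.2% of Ctrl cells, and the highest 5% of Ctrl cells held 91.5% of its UMIs. In cells thinned to 2000 UMIs the shares for Cxcl9 were 0.518% in RES and 9.43% in Ctrl, with 0.0679% and 2.18% in NK barcodes. For Cxcl10 they were 0.518% in RES and 9.43% in Ctrl, with 0.611% and 2.70% in NK barcodes, so the RES share did not exceed the background. Gbp2 was broader, in 5.18% of thinned RES cells and 18.4% of thinned Ctrl cells, with 3.4% and 4.42% in NK barcodes.

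The proximal promoters of 4 of these genes are printed because they hold the letters that the interferon-activated factors bind. They are the 250 bases upstream of the RefSeq start on GRCm38.p6, 5′ to 3′ on the strand of the gene, with capitals marking matches to GAAANNGAAA, the core of the interferon-stimulated response element (ISRE), TTCNNNGAA, the core of the gamma-activated site (GAS), or GATTGG, the core of the Y box, each searched on both strands.
Cxcl10: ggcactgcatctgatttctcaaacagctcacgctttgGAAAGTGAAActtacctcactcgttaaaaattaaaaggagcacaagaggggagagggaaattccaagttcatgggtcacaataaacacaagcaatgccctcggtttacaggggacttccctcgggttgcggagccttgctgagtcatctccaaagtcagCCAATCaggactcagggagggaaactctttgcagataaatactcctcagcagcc
Gbp2: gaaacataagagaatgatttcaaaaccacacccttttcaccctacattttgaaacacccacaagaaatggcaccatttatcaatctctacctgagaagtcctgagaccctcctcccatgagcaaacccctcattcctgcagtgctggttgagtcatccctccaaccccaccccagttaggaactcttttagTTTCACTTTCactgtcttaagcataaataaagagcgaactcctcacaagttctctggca
Gbp5: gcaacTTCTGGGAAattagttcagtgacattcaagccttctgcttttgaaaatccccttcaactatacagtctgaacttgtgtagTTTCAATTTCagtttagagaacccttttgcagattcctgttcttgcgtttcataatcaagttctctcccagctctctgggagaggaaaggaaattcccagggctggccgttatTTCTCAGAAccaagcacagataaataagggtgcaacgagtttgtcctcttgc
Irf1: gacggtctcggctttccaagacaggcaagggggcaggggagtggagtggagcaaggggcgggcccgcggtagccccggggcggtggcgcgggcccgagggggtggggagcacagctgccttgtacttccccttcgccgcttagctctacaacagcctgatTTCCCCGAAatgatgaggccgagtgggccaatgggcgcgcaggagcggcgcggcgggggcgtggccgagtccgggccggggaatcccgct
They lie at chr5:92348890-92349139 (minus strand), chr3:142620413-142620662, chr3:142496684-142496933 and chr11:53769764-53770013 (plus strand). The ISRE core ends 204 bases before the start of Cxcl10 and 50 before that of Gbp2, and Irf1 holds a GAS core that ends 82 bases before its start. Gbp5 holds an ISRE core and 2 GAS cores. Of the 15 measured interferon gamma genes with a promoter in the table, 9 held the ISRE core and 7 the GAS core, against 2.98% and 7.02% of all 32851 promoters of the same length. These matches describe the letters and show no binding.

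MHC class II genes, which load and display peptides to helper T cells, were lower in RES in 7 of 10 measured members, with a median log2 ratio of -1.42. H2-Ab1 was at 260 CPM in RES and 836 CPM in Ctrl (log2 -1.68), H2-Aa at 253 and 866 CPM (log2 -1.77) and H2-Eb1 at 133 and 574 CPM (log2 -2.11). They encode chains of the class II molecules and are neighbours on chr17, at chr17:34257689-34269419, chr17:34282744-34287823 and chr17:34305867-34316674. Cd74, the invariant chain that fills the groove until a peptide arrives, was at 985 CPM in RES and 2927 CPM in Ctrl (log2 -1.57). Ciita, the master activator of these genes, was at 29.8 and 81.9 CPM (log2 -1.46), and H2-DMb1, a chain of the peptide exchanger, at 126 and 199 CPM (log2 -0.65). The protease gene Ctss and the co-stimulator gene Cd86 were within 1.5-fold (log2 0.12 and -0.05).

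The promoters of H2-Eb1 and H2-DMb1 are shown because both hold the compact array that recruits the class II activator. The window, build and strand rule are those above, and capitals mark the X box core AGNNACNGATG and the Y box core GATTGG, searched on both strands.
H2-Eb1: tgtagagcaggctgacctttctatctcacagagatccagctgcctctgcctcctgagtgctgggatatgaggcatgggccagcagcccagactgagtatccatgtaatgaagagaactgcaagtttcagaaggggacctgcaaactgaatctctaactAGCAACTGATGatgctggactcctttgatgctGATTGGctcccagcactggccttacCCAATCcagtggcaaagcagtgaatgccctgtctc
H2-DMb1: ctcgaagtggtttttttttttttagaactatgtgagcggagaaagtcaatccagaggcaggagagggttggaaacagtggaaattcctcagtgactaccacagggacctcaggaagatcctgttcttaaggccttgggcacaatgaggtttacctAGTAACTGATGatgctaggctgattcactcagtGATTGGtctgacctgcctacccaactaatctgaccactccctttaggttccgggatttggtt
They lie at chr17:34305617-34305866 and chr17:34152941-34153190, both on the plus strand. The X box core starts 92 bases before the start of H2-Eb1 and 95 before that of H2-DMb1, with a Y box core 60 and 62 bases before it. The X box core was in 0.816% and the Y box core in 14.6% of all promoters, and in 2 and 4 of the 5 measured class II genes with a promoter in the table.

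The class II difference lay in a tail of rich cells and less in the typical cell. After thinning to 2000 UMIs the median cell had 5 class II UMIs in RES and 6 in Ctrl, while the 90th percentile was 14 in RES and 41.7 in Ctrl. Cells with at least 20 such UMIs, a limit set after the distribution was seen, were 25 of 386 in RES (6.48%, 4.23 to 9.41) and 46 of 244 in Ctrl (18.9%, 14.1 to 24.3), a difference of -12.4 points (-18.1 to -7.09). A lower limit of 10 gave 18.1% in RES and 30.3% in Ctrl, and a higher one of 30 gave 5.18% and 14.3%. At the limit of 20, 15 RES and 12 Ctrl cells lay between 15 and 24. The rich cells held 34.6% of all class II UMIs of members in RES and 68.5% in Ctrl.

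**Figure D3:**
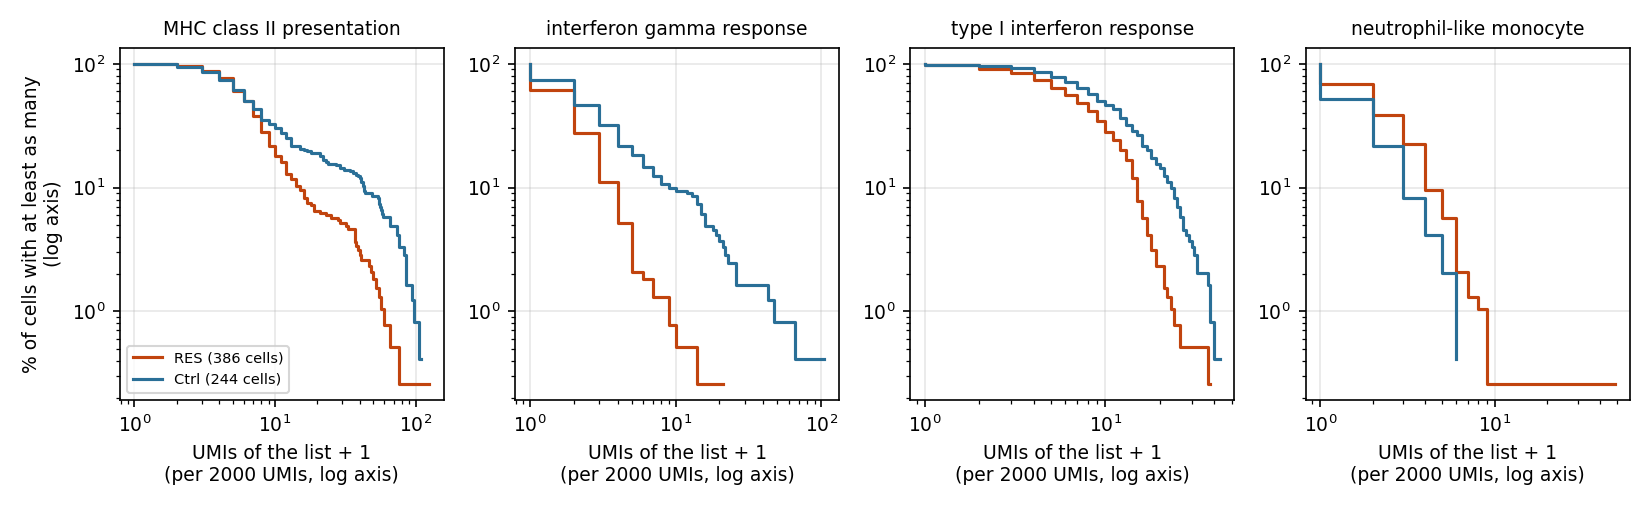
Share of member cells (log axis) with at least a given number of UMIs of a gene list after thinning each cell to 2000 UMIs (log axis, 1 added), for RES (red-orange, 386 cells) and Ctrl (blue, 244 cells). The class II curves run together at low numbers and part in the upper tail, and the interferon gamma curve of Ctrl lies above that of RES. The 90th percentiles are 14 and 41.7 class II UMIs and 3 and 8 interferon gamma UMIs, for RES and Ctrl.

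The class II-rich cells of the libraries also differed in other genes. In Ctrl they held Ccl5 at 570 CPM, Lpl, a lipase, at 582 CPM, Ly6i at 400 CPM and the integrin gene Itgax at 99.5 CPM, against 23.6, 3.37, 33.7 and 30.4 CPM in the RES ones. The RES ones instead held Clec10a, a lectin of type 2 dendritic cells, at 253 CPM, against 14.6 CPM in Ctrl. These genes were picked after their values were seen, from 25 RES and 46 Ctrl cells, and over all members Clec10a turned to a log2 ratio of -0.13 when the choice was applied after thinning. Cxcl9 was seen in 0 of the 25 rich RES cells and in 19 of the 46 rich Ctrl cells. The Ly6c2 level of the rich cells was 573 CPM in RES and 1245 CPM in Ctrl, Ccr2 was at 2189 and 1742 CPM, and the 4 choosing markers had a median of 7 UMIs in RES and 11 in Ctrl, against 34 and 17.5 in the remaining members. The 6 markers of type 2 dendritic cells summed to 77.6 CPM in all RES members and 60.0 CPM in all Ctrl members. Both were below the 238 and 271 CPM of the other kept barcodes. In the rich RES cells, however, Clec10a alone was above that 238 CPM. The other markers were also higher in the rich RES cells than in the rich Ctrl ones. Mgl2 was at 64.1 and 0 CPM, Flt3 at 30.4 and 9.71 CPM and Kmo at 23.6 and 12.1 CPM. Cd209a was at 13.5 and 4.85 CPM and Zbtb46 at 6.75 and 2.43 CPM, from few UMIs. The part of type 2 dendritic cells in the rich cells was not tested.

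The rich cells were picked on the sum of the class II genes, so that removing them shrinks the ratios of those genes by construction, and the remaining class II values are given as a description. Among the remaining members H2-Ab1 was at 45.3 CPM in RES and 57.9 CPM in Ctrl (log2 -0.35, -0.73 to 0.04), H2-Aa at 32.9 and 43.2 CPM (log2 -0.39) and Cd74 at 281 and 475 CPM (log2 -0.76). The class II list had 4 of 10 measured genes lower there, with a median log2 ratio of -0.37 against 0.02 over all genes. These levels were under those of NK barcodes, where H2-Aa was at 264 CPM in RES and 479 CPM in Ctrl and Cd74 at 658 and 1255 CPM, and the part of free RNA in them was not tested. Cxcl9 kept a log2 ratio of -4.93, Cxcl10 of -2.91 and Gbp2 of -2.38, and the interferon gamma list had 10 of 13 measured genes lower, with a median of -1.14. Ccl5 was at 30.3 CPM in RES and 49.2 CPM in Ctrl among the remaining members (log2 -0.70), and the long noncoding RNA gene AW112010 at 45.6 and 48.5 CPM (log2 -0.09). Both are NK cell transcripts, at 14858 and 3848 CPM in RES NK barcodes and 14752 and 3980 CPM in Ctrl ones. The 10 NK markers summed to 67.0 CPM in RES members and 227 CPM in Ctrl members, but Ccl5 is 1 of them. Of 436 Ctrl UMIs of the list, Ccl5 had 235 in the rich cells and 74 in the other members. Gzma was at 29.1 CPM in the rich Ctrl cells and 43.9 CPM in the others. Klra8, Klre1, Gzmb, Eomes and Prf1 were lower in the rich Ctrl cells too. Nkg7 was higher (14.6 and 8.65 CPM), and the choice excluded Ncr1 and Klrb1c. In the rich Ctrl cells Cxcl9, Ccl5 and AW112010 were all above their level in the other Ctrl members, by log2 2.35, 3.53 and 3.28, and the T cell genes Cd3g, Trac, Cd3d and Cd3e had 9, 8, 5 and 2 UMIs there. These 4 had 0 UMIs in the rich RES cells and 0 in the other Ctrl members. They were picked from a list of 8 T cell markers, and the others showed less. Trbc1 had 1 UMI in the rich Ctrl cells, 4 in the other Ctrl members and 1 in the rich RES cells. In the rich and other Ctrl cells Trbc2 had 2 and 2 UMIs, Cd4 1 and 0, and Cd8a 0 and 0. The part of NK and T cell RNA in the rich cells was not tested.

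**Figure D4:**
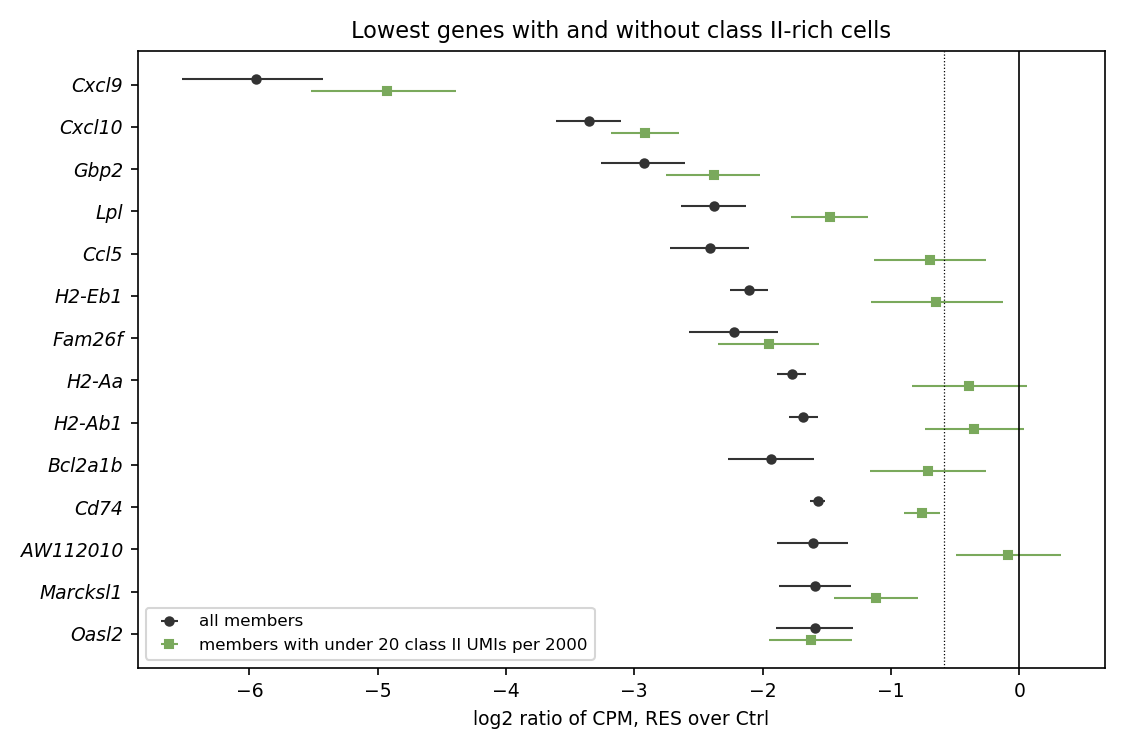
Log2 ratios of CPM, RES over Ctrl, of 14 of the 15 genes ranked lowest in RES, over all members (black circles) and over members with under 20 class II UMIs per 2000 (green squares), with exact conditional binomial intervals for counting error and a dotted line at 1.5-fold. The class II genes H2-Ab1 and H2-Aa, at -0.35 and -0.39, are part of the sum that split the cells, so their move follows from the split. Of the genes outside that sum, AW112010 lies at -0.09, Cxcl9 at -4.93 and Oasl2 no nearer to 0 than over all members.

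Antiviral genes of the type I interferon response were lower too, although the choice of cells had already left out those richest in Ifit transcripts. Of 27 measured genes 15 were lower and 0 higher, with a median log2 ratio of -0.64. Oasl2, an oligoadenylate synthetase-like protein, was at 38.7 CPM in RES and 117 CPM in Ctrl (log2 -1.60). Isg15, a ubiquitin-like modifier, was at 50.7 and 124 CPM (log2 -1.29), and Ly6a at 1.68 and 35.5 CPM (log2 -4.40). The most abundant of them, Ifi27l2a, was within 1.5-fold at 1380 CPM in RES and 1898 CPM in Ctrl. Without the class II-rich cells 13 of 25 were lower with a median of -0.62, while Ly6a, with 51 of its 68 Ctrl UMIs in those cells, was at log2 -2.64 there from 7 and 17 UMIs. The thinned sum per cell had a median of 6 UMIs in RES and 8.5 in Ctrl, with upper quartiles of 10 and 15, so the median and the upper quartile were both lower in RES. The barcodes left out by the interferon limit, 12 in RES and 22 in Ctrl, had Cxcl9 at 1322 CPM in RES and 4701 CPM in Ctrl, and Oasl2 at 630.5 and 594 CPM.

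MHC class I genes, which display peptides to killer T cells, had 5 of 16 measured members lower and 0 higher, with a median log2 ratio of -0.32. H2-K1 was at 549 CPM in RES and 877 CPM in Ctrl (log2 -0.67), and Tap1, a peptide transporter, at 60.3 and 114 CPM (log2 -0.92), while B2m, the shared light chain, was at 1525 and 1640 CPM (log2 -0.10). Among the members outside the class II-rich cells 1 of 13 class I genes was lower.

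Genes that mark the next fates of a monocyte gave small counts. Among 12 genes of the step towards nonclassical monocytes 3 were lower and 1 higher, against 4.15% and 5.25% of all measured genes. The fractalkine receptor gene Cx3cr1 was at 248 CPM in RES and 428 CPM in Ctrl (log2 -0.79), Spn, which encodes CD43, at 29.3 and 60.0 CPM (log2 -1.03), and Cebpb, a transcription factor that nonclassical monocytes need, at 1560 and 948 CPM (log2 0.72). Nr4a1, needed for the same step, was within 1.5-fold (log2 -0.33). Among 10 genes of the step towards macrophages 3 were higher and 2 lower. Trem2, a lipid-sensing receptor, was at 106 CPM in RES and 56.3 CPM in Ctrl (log2 0.91), and Lpl at 43.5 and 226 CPM (log2 -2.38). Among 6 dendritic-like monocyte genes 3 were lower and 1 higher, and the lower ones were Itgax, Slamf7 and Tnip3, with log2 ratios of -1.69, -1.62 and -1.31. The rich Ctrl cells held 41 of the Itgax UMIs and the other Ctrl members 5, and without the class II-rich cells its ratio had the opposite sign, at log2 0.78 from 22 and 5 UMIs (-0.66 to 2.53).

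Among matrix and fibrogenic genes 3 of 12 were higher and 2 lower, against 5.25% and 4.15% of all measured genes. Of these, Thbs1 and Mmp19 reached 20 CPM in RES alone and Mmp14 in Ctrl alone, so their direction followed from that limit. Thbs1, the matrix protein thrombospondin 1, was at 89.1 CPM in RES and 16.7 CPM in Ctrl (log2 2.42), and Mmp19, a matrix protease, at 30.03 and 7.30 CPM (log2 2.04). Thbs1 came from 20.3% of RES cells and 6.12% of Ctrl cells, with the highest 5% of RES cells holding 75.5% of it. Fn1, fibronectin, was at 1776 and 1460 CPM (log2 0.28), and the gene of the fibrogenic cytokine Tgfb1 was at 288 and 370 CPM (log2 -0.36), both within 1.5-fold. Mmp14, the membrane-bound protease gene, was at 5.04 and 20.3 CPM (log2 -2.01). The class II-rich cells held 27 of its Ctrl UMIs against 12 in the other Ctrl members. Without those cells its ratio was -1.04, with an interval across 0 (-2.23 to 0.19).

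Inflammatory mediators were 2 higher and 4 lower of 18, against 5.25% and 4.15% of all measured genes. Of these, Osm reached 20 CPM in RES alone and Il1rn in Ctrl alone, so their direction followed from that limit. Osm, oncostatin M, was at 34.1 CPM in RES and 14.1 CPM in Ctrl (log2 1.28), Il1rn, the interleukin-1 receptor antagonist, at 18.3 and 55.8 CPM (log2 -1.61), and Il1b at 82.6 and 140 CPM (log2 -0.76). The ratio of Il1rn was -0.56, within 1.5-fold, without the class II-rich cells, which held 69 of its Ctrl UMIs against 38 in the other Ctrl members. The receptor gene Il4ra was at 74.2 and 39.1 CPM (log2 0.92). A separate list of alternative activation genes had 4 of 5 measured genes higher and 0 lower, with a median log2 ratio of 0.92. Among 17 lysosomal genes 3 were higher and 0 lower, led by Ctsl and Ctsd, cathepsins with log2 ratios of 1.31 and 0.94. Of 18 lipid genes 2 were higher and 4 lower, and Fabp5, a fatty acid chaperone, was at 131 and 69.9 CPM (log2 0.90, but 0.03 when the choice was applied after thinning and 0.42 without its highest 5% of cells). Of 7 measured p53 targets 3 were lower, and cell cycle genes showed 0 of 5 past 1.5-fold. Of 22 monocyte transcription factor genes 3 were higher and 1 lower, the latter near the 4.15% of all measured genes. Spi1, which encodes the lineage factor PU.1, was at 558 CPM in RES and 591 CPM in Ctrl (log2 -0.08).

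Other genes among the 30 ranked ones were less well described or uncertain. Gcnt2, a glycosyltransferase, was at 105 CPM in RES and 21.9 CPM in Ctrl (log2 2.26) and was seen in 57.4% and 14.3% of cells. Gm9733 was at 132 and 56.3 CPM (log2 1.23). The long intergenic RNA gene AC160336.1 was at 199 and 93.4 CPM (log2 1.09), but it was also at 196 and 88.3 CPM in NK barcodes of the same libraries. Marcksl1, an actin-regulating protein, was at 44.2 and 133 CPM (log2 -1.59). Bcl2a1b, an anti-apoptotic gene, was at 28.6 and 109 CPM (log2 -1.93), but near-identical copies of it exist and the counting could have split their reads. The class II-rich cells held 140 of its Ctrl UMIs against 69 in the other Ctrl members. Without those cells its ratio was -0.71 (-1.16 to -0.26).

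The nonclassical monocytes of the same libraries, chosen by the reverse limits on the 2 marker sets, numbered 475 in RES and 258 in Ctrl and are given side by side. The interferon gamma list had 11 of 12 genes lower there (median log2 -1.42), the class II list 8 of 10 (-1.04), the type I list 16 of 22 (-0.93) and the glucocorticoid list 5 of 12 higher (0.55). Of all 5882 genes measured in nonclassical monocytes 344 were higher and 183 lower, with a median log2 ratio of 0.06. Prtn3 was at 0 in both libraries of nonclassical monocytes, and Ccr1 was at 3.20 CPM in RES and 1.32 CPM in Ctrl. Ccr2 was at 158 CPM in RES and 285 CPM in Ctrl there. Hp was at 541 and 163 CPM (log2 1.73). The differences between the monocyte subsets were not tested.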

How the data were processed

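Per the labels' protocols, sorted liver cells pooled from 5 mice per library were sequenced as 10x 3′ libraries. The authors deposited raw UMI counts per gene and barcode, without normalization, for 31053 genes. Cell Ranger 3.1.0 is named in the file headers, and bcl2fastq, Cell Ranger and mm10 in the submitters' processing notes. The sources used here do not give the gene annotation. Reads of near-identical or antisense genes can be split or shared by such counting.

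The members, lists and limits were chosen with earlier results of these data known. UMIs of members were summed per library and scaled to CPM with Python 3.11.15, numpy 2.4.6 and scipy 1.17.1. Library depth was 34119806 UMIs for RES and 20379164 for Ctrl. Intervals are exact Poisson for sums, exact conditional binomial for ratios, Clopper-Pearson for shares and Newcombe for differences of shares, at 95%. They cover counting error only, and there was no test, with 1 library per group. A gene was counted as higher or lower from 1.5-fold, where RES, Ctrl or both reached 20 CPM. A gene that reached 20 CPM in only 1 library could differ in only 1 direction. Named genes were, in each direction, the first 15 when genes reaching 100 CPM were ranked by log2 ratio after adding 10 CPM to both levels (Xist, Y-linked, haemoglobin, mitochondrial and ribosomal genes and genes of the choice were not ranked), and up to 4 per list (2 highest, 2 lowest). Other list members were named after their values were seen. Genes of the choice were left out of list counts. NK barcodes had at least 2 UMIs of Ncr1 and Klrb1c. Nonclassical monocytes had at least 4 UMIs of their 4 markers and at most 1 of the classical ones. No doublets were removed in the values reported, and removal by Scrublet scores was an alternative. Promoters came from RefSeq (GRCm38.p6), gene positions from GENCODE M21, where 30 of 30 ranked genes matched. The ratios and their intervals were tested on simulated data. Ifi30 and Clec7a were not analysed here, and some genes that the rule names are not reported here.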

Additional observations from a re-analysis of the deposited data

Results flagged for a closer look

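For 3 genes the ratio of RES over Ctrl had opposite signs in the classical monocytes outside the interferon state and in the nonclassical monocytes, each past 1.5-fold. The differences between the subsets were not tested, as each rests on 1 library per group. Tnfaip3, an inhibitor of NF-kB signalling, was lower in RES classical monocytes (log2 -0.78) and higher in RES nonclassical ones (log2 1.37). The first of these ratios was -0.08, within 1.5-fold, when the choice was applied after thinning. Bcl2a1d, of the same near-identical family as Bcl2a1b, had log2 ratios of -1.31 and 0.64 in that order, and Mmp14 of -2.01 and 0.62, both from few UMIs (35 and 21 in RES classical monocytes, 40 and 39 in Ctrl ones). Of the Bcl2a1d UMIs in Ctrl classical monocytes 29 lay in the class II-rich cells and 11 in the others, and without those cells its ratio was 0.22, with the sign of the nonclassical one. The ratio of Mmp14 without those cells was -1.04 (-2.23 to 0.19).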

How the results depend on the processing

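Of 30 ranked genes 29 stayed past 1.5-fold in their direction under all 17 alternatives, and Slpi was at log2 0.56 without members that held 2 or more neutrophil marker UMIs. Some of the 17, such as the minimum of 50 CPM, could not change the ratio of a ranked gene. Leaving out the class II-rich cells was not among them. Without those cells AW112010 was at log2 -0.09, H2-Ab1 at -0.35 and H2-Aa at -0.39, all within 1.5-fold. For the class II genes this follows from the split. Applying the choice after thinning every barcode to 3000 UMIs gave 513 higher and 450 lower genes, differences of 1.18 points in the share outside the interferon state and 0.213 points in the share of Lyz2 barcodes, and opposite signs for Clec10a (-0.13), Sdc4 (0.17), Hmox1 (-0.24) and Pmaip1 (0.11). The share of Lyz2 barcodes also changed sign with an Ifit limit of 1 (0.662 points, with 10.4 points outside the interferon state) and with at least 8 monocyte marker UMIs (1.76 points), and the member share of Lyz2 barcodes was -5.26 points with no C1q, Arg1 or Spp1 UMI, where the share of kept barcodes was -0.555 points. Without the members holding neutrophil markers, which removed cells by Csf3r and Mmp8 as well, the share of kept barcodes was 0.0367 points, 427 genes were higher and 373 lower, the median of the neutrophil-like list was 0.52 and Mmp8 was at -0.24. A minimum of 50 CPM gave 120 higher and 113 lower genes, and no minimum beyond 3 UMIs gave 1415 and 1577. Leaving out each gene's highest 5% of cells, chosen after seeing the data like the removal of shared barcodes, gave 629 higher genes, 71.7% of those called against 55.8% as reported. Across all alternatives Cxcl9 ran from -7.90 to -4.24, Cxcl10 from -5.82 to -2.39, Ccl5 from -3.14 to -0.86, H2-Eb1 from -3.12 to -1.11, Cd74 from -2.33 to -0.85, Ccr1 from 1.81 to 3.07 and Cxcl2 from 0.96 to 2.63. The cause of these shifts was not tested. No paired analysis was possible because each group had 1 library. Low UMI counts limit the rarer genes, and nothing here separates library from group.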
